A study of Mus musculus with 14 samples.

Results

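The loci described here are those of 9 transcription factor genes that T cells switch on or engage after antigen receptor signalling: Nr4a1, Nr4a2, Nr4a3, Egr1, Egr2, Egr3, Nfatc1, Tox and Tox2. Accessible regions were assigned to them by position, when the midpoint of a region had one of these genes as its nearest protein-coding transcription start or lay within the gene. This gave 162 of the 67254 regions in the bulk ATAC-seq data of the study, of which 161 were placed by the nearest start and 1 by the gene body of Tox alone. Tox held 63 of them, Nfatc1 36, Egr2 12, Tox2 11, Nr4a3 and Egr3 10 each, Egr1 8, and Nr4a1 and Nr4a2 6 each. The filter on low counts was passed by 153 of the 162, and the other 9 averaged at most 1.80 CPM (counts scaled to a library total of 1e+06) over the libraries.

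ATAC-seq counts the cuts that a transposase makes in open chromatin, so that a higher count means a more accessible region. The study asked how loss of Atg14, a subunit that directs the lipid kinase Vps34 to autophagy, alters splenic regulatory T cells (Tregs) in a central state (cTregs, CD44- CD62L+) and an effector state (eTregs, CD44+ CD62L-). Donor BM marked by CD45.2 came from control (Foxp3Cre Atg14+/fl) or Foxp3Cre Atg14fl/fl mice, was mixed in equal parts with CD45.1+ wild-type BM, and was left for 6 to 8 weeks in sublethally irradiated Rag1-/- hosts, which have no T or B cells of their own. CD4+ Foxp3-YFP+ cells of both states were sorted from spleen, giving 3 control cTreg, 4 Atg14-deficient cTreg, 3 control eTreg and 4 Atg14-deficient eTreg libraries. Control cells also carried the Cre transgene and a floxed Atg14 allele, and Cre was driven by Foxp3, which directs deletion to cells that express Foxp3. Per the methods, some experiments used Foxp3Cre Atg14fl/fl mice that also bore a deleted Atg14 allele, and these experiments are not named. The study's methods give a general age range for its mutant mice but no age for the donors or hosts of these libraries, and the labels number the replicates without naming the animals, so that p-values measure the spread between libraries.

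Signals through the T cell receptor raise calcium, which activates the phosphatase calcineurin. Calcineurin lets NFAT proteins enter the nucleus, where they pair with AP-1 factors, while the Ras and ERK branch induces the Egr zinc finger factors and the Nr4a orphan nuclear receptors within a short time. In Tregs, Nr4a factors help to keep Foxp3 expressed, Egr2 and Egr3 restrain activation, and the HMG-box factors Tox and Tox2 are known from T cells under lasting antigen exposure and from T cell development in the thymus.

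The sequences below are central windows of 300 bases of the distal regions with the smallest p between control eTregs and control cTregs at the loci of Tox, Tox2, Nr4a3 and Egr2, which are 4 of the 5 loci with a distal region called between states in both genotypes (the fifth, Nfatc1, is not shown), and 250 bases before an Egr2 start, because 3 of the 9 loci held a serum-response (CArG) box at their promoter. They were read on the plus strand from RefSeq's GRCm38 genome (the Egr2 promoter from the RefSeq promoter set of GRCm38). The windows are chr4:6902281-6902580 in a Tox intron, chr4:7364273-7364572 at 372.9 kb upstream of Tox, chr2:163166506-163166805 at 36.5 kb upstream of Tox2, chr4:48039698-48039997 at 5.5 kb upstream of Nr4a3, chr10:67430875-67431174 at 104.5 kb upstream of Egr2, and chr10:67537316-67537565 at the Egr2 promoter. Capitals mark the NFAT core TGGAAA, the AP-1 site TGANTCA and the CArG box, searched on both strands. In the Egr2 promoter the CArG box and an NFAT core overlap and form 1 run of capitals.
Tox intron: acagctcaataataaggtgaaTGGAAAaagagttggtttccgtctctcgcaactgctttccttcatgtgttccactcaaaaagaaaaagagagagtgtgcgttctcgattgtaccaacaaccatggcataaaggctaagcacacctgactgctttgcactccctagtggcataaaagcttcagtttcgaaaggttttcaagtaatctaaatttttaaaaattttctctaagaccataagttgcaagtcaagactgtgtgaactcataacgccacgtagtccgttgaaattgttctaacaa
Tox upstream: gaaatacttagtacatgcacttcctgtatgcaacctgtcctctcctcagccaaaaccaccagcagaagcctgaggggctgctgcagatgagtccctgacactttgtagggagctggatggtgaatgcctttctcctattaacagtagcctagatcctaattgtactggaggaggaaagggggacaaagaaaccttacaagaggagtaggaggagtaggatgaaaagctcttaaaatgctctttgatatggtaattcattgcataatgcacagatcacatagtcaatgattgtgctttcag
Tox2 upstream: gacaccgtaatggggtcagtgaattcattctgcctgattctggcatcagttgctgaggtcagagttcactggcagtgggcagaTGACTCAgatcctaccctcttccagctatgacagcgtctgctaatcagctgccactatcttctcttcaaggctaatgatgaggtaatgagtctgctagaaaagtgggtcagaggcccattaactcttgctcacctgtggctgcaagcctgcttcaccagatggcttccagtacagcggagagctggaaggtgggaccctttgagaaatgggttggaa
Nr4a3 upstream: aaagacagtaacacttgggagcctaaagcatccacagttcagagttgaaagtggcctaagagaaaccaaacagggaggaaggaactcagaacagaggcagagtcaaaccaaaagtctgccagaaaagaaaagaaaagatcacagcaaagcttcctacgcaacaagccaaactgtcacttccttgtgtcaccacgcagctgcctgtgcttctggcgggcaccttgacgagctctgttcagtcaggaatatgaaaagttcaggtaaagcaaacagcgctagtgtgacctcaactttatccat
Egr2 upstream: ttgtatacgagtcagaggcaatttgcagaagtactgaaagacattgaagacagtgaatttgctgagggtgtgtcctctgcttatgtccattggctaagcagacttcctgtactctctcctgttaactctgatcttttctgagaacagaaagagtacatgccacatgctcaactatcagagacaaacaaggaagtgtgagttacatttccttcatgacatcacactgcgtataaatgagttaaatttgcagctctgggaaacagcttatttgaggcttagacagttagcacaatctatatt
Egr2 promoter: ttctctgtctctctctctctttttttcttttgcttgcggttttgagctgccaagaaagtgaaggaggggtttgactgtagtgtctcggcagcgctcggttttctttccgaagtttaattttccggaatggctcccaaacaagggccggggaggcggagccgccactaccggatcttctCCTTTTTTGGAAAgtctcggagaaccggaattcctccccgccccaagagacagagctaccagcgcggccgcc

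The more accessible Tox2 region in eTregs carries an AP-1 site, and the less accessible Tox intron region an NFAT core, while the other 3 distal windows hold none of the motifs searched. Over the central 300 bases of all 162 regions, an NFAT core was present in 55 (34.0%, against 24.0% of all regions), an AP-1 site in 29 (17.9% against 14.7%), a cyclic AMP response element TGACGTCA in 2 (1.23% against 1.14%), an EGR core GTGGGCG in 5 (3.09% against 5.47%) and an NR4A element AAAGGTCA in 1 (0.617% against 2.05%). A CArG box, the site of serum response factor, lay in 6 of the 162 (3.70% against 1.41%), namely the promoters of Egr1, Egr2 and Egr3, 2 further Egr3 regions and a region 15.5 kb upstream of Nr4a3. The Egr1 promoter window held 3 of them. Of the 16 member regions at promoters, 18.8% had a CArG box, against 0.954% of all promoter regions. Promoters made up 9.88% of the member regions and 20.1% of all regions. Outside promoters the shares were 33.6% against 26.6% for the NFAT core, 19.2% against 17.1% for AP-1 and 2.05% against 1.52% for the CArG box. They were 3.42% against 3.28% for the EGR core, 0.685% against 2.38% for the NR4A element and 0.685% against 0.749% for the cyclic AMP response element. In the RefSeq set, 1.47% of 32851 promoters had a CArG box in the 250 bases before the start and 18.6% an NFAT core. These matches describe letters in the windows and not factor binding.

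Total counts were between 2242983 and 5548189 per library, and values are given as CPM of that total. Between 49.9% and 56.5% of the counts of a library fell in promoter regions, and the members together took between 2246 and 3001 CPM. Accessibility at promoters of genes known for cTregs went with the sorted state, with Ccr7, Satb1 and Tcf7 lower in control eTregs (log2 fold changes -1.44, -1.71 and -1.96, adjusted p of 0.003, 0.003 and 0.039 by edgeR). None of the 6 eTreg genes with a promoter region was higher past the adjusted threshold. In controls Klrg1, Ccr8, Cd44 and Prdm1 had log2 fold changes of 1.56, 0.41, 0.24 and 0.08, and Tigit had -0.09. Icos was lower in control eTregs than in control cTregs (19.8 against 31.9 CPM, log2 fold change -0.69, adjusted p = 0.05005 by edgeR), just short of the threshold. At Foxp3, the region 3.6 kb inside the gene had group means of 21.0, 20.1, 17.2 and 14.7 CPM in control cTregs, Atg14-deficient cTregs, control eTregs and Atg14-deficient eTregs. In the same order, the nearest tested regions of Ikzf2 had 48.7, 51.7, 34.6 and 49.0 CPM and of Cd4 24.5, 33.0, 25.9 and 34.1 CPM. The promoters of Il2ra, Ctla4 and Cd3e summed to 68.7 to 84.2, 85.3 to 111, 56.8 to 66.9 and 69.4 to 76.4 CPM. Ctla4 was lower in control eTregs than in control cTregs (34.8 against 51.0 CPM, log2 fold change -0.56, adjusted p = 0.0497 by edgeR). The promoter of Atg14, at which accessibility is no check of the deletion, had group means between 21.8 and 28.5 CPM. Among markers of other cells, Cd8b1, 1 of 2 CD8 T cell markers, was the one with a promoter region and moved with cell state, from 15.6 to 16.9 CPM in control cTregs, 10.3 to 21.4 CPM in Atg14-deficient cTregs, 2.62 to 6.83 CPM in control eTregs and 1.54 to 6.35 CPM in Atg14-deficient eTregs. Of 5 B cell markers only Ebf1 had a promoter region, at 0.529 to 5.39 CPM, and of 5 myeloid markers Spi1 and Cebpb, which summed to 17.8 to 29.6 CPM in cTregs and 21.8 to 38.7 CPM in eTregs. Their part in the differences below was not tested, and a larger share of open cells and a more open site in each cell cannot be told apart in bulk samples.

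Between control eTregs and control cTregs, the locus of Tox was less accessible in eTregs and that of Tox2 more accessible. A region was called at an adjusted p below 0.05 (Benjamini-Hochberg, edgeR's quasi-likelihood test over all 61366 regions) and a log2 fold change beyond 0.5. By this rule, 19 of the 153 member regions (12.4%) were called, against 5.30% of all regions tested. Of these, 17 were lower in eTregs (3.29% of all regions were) and 2 higher (2.01% of all). Tox gave 12 of the 17, and the other loci together had 7 of 94 regions called (7.45%), which is near the background. The median log2 fold change was -0.28 over the member regions and -0.01 over all regions.

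In Atg14-deficient cells, 27 of the 153 member regions (17.6%) were called between eTregs and cTregs, against 9.81% of all regions, with 22 lower (5.40% of all) and 5 higher (4.41% of all). Without Tox the count was 11 of 94 (11.7%). With the replicate number as a block, 35 member regions were called (22.9%, against 15.5% of all regions), and these included all 27. The lists of the control and the Atg14-deficient comparison had 13 regions in common, that is 68.4% of the control list and 48.1% of the Atg14-deficient list. The comparisons share no library but share the model's estimate of the spread. The same overlap over all regions is not given here, so that these shares describe the lists and are no result about the members. Over all 153 member regions, control eTregs lay above control cTregs without overlap in 11 (7.19%, against 12.2% of all regions) and below in 40 (26.1% against 13.9%). In Atg14-deficient cells they lay above in 7 (4.58% against 7.13%) and below in 26 (17.0% against 8.38%).

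**Figure D1:**
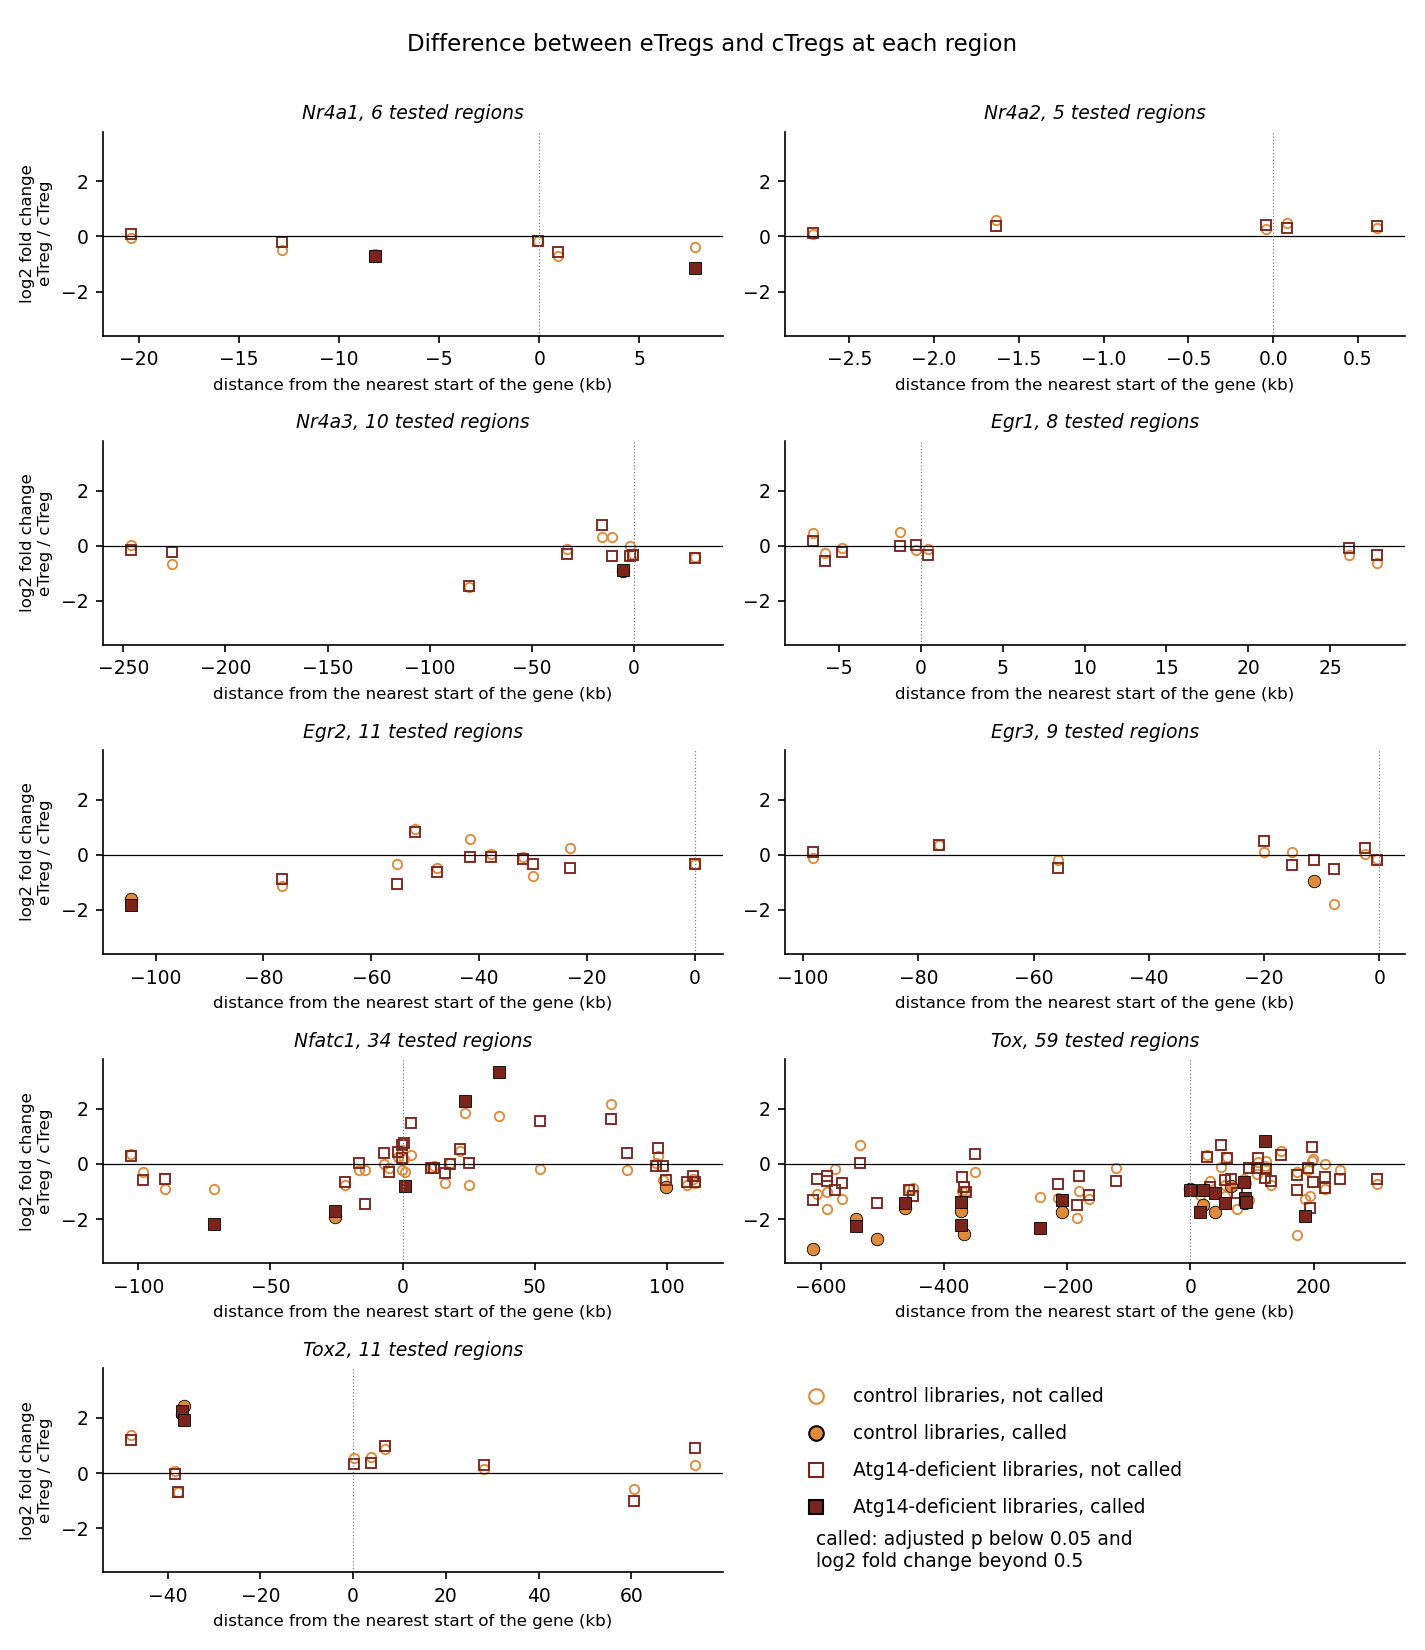
Log2 fold change of eTregs over cTregs (vertical axis) at each tested region of the 9 loci, by distance from the nearest start of the gene in kb (horizontal axis, negative upstream), with circles for control and squares for Atg14-deficient libraries and filled marks for called regions. At Tox, 50 of 59 regions lie below 0 in each genotype, and both called Tox2 regions lie above 0 and next to each other.

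Nr4a1 encodes the nuclear receptor Nur77, which is widely used as a reporter of antigen receptor signals. Its promoter region (chromosome 15, 101266464 to 101267054) had 63.8, 63.7 and 62.4 CPM in control cTregs, 54.3, 61.1 and 52.3 CPM in control eTregs, 58.4, 53.3, 61.8 and 65.9 CPM in Atg14-deficient cTregs and 46.4, 62.8, 52.9 and 53.2 CPM in Atg14-deficient eTregs. The control groups did not overlap but the log2 fold change of -0.18 (SE 0.14, the standard error) did not pass the test. A region 8.2 kb upstream of that start and annotated as intron (101258335 to 101258949), had 56.9, 54.8 and 50.4 CPM in control cTregs and 35.8, 40.4 and 27.9 CPM in control eTregs, and 59.6, 48.7, 80.7 and 60.1 against 34.2, 25.9, 52.4 and 39.8 CPM in the Atg14-deficient cells. All eTreg libraries were lower in controls, while the Atg14-deficient groups overlapped. The region was called in Atg14-deficient cells (log2 fold change -0.70, adjusted p = 0.0122 by edgeR) and had -0.65 with an adjusted p of 0.0586 by edgeR in controls. Without Atg14-deficient cTreg library 3 the former was -0.55 and no longer called. In Atg14-deficient cells a weaker region in an untranslated exon, 7.8 kb inside the gene, was also called (7.28 ± 0.422 CPM, SD, n = 4, in cTregs and 3.32 ± 1.05 CPM, SD, n = 4, in eTregs), although leaving out any Atg14-deficient library other than eTreg 2 ended that call, at log2 fold changes of -1.20 to -0.93. The most accessible Nr4a1 region, 20.4 kb upstream, differed little between states in controls (71.8 ± 10.8 CPM against 69.3 ± 6.25 CPM, SD, n = 3 each). The Nr4a1 total fell by 0.23 on the log2 scale in Atg14-deficient cells (adjusted p = 0.0688 by edgeR), and with the replicate number as a block it was called (adjusted p = 0.00739 by edgeR).

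Nr4a2, the related receptor Nurr1, had no called region. All 5 of its tested regions had positive log2 fold changes in both genotypes, from 0.10 to 0.60 in controls. Its most accessible region, at the promoter (chromosome 2, 57114794 to 57115364), had 57.9, 51.0 and 56.6 CPM in control cTregs and 78.1, 53.0 and 68.9 CPM in control eTregs. These groups overlapped, and the log2 fold change of 0.27 (SE 0.19) did not pass. Summed over the locus, Atg14-deficient eTregs were higher than Atg14-deficient cTregs (172 ± 30.9 against 134 ± 18.5 CPM, SD, n = 4 each, log2 fold change 0.35, adjusted p = 0.0399 by edgeR over 15346 gene totals). Controls had a similar log2 fold change of 0.38 with an adjusted p of 0.0851 by edgeR, and leaving out any Atg14-deficient library other than cTreg 2 or eTreg 4 ended the call (log2 fold changes 0.25 to 0.35).

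At Nr4a3, which encodes the receptor Nor1, the region 5.5 kb upstream of the start (chromosome 4, 48039707 to 48039987) was lower in eTregs of both genotypes. It had 23.0, 21.3 and 25.9 CPM in control cTregs against 10.1, 11.5 and 14.4 CPM in control eTregs. Atg14-deficient cells had 21.8, 18.7, 28.4 and 22.5 CPM in cTregs against 13.5, 10.0, 15.1 and 10.5 CPM in eTregs. Groups did not overlap in either genotype, and the log2 fold changes were -0.94 (SE 0.25, adjusted p = 0.0278 by edgeR) and -0.89 (SE 0.22, adjusted p = 0.0115 by edgeR). The call in controls was lost without cTreg 1, cTreg 3, eTreg 1 or eTreg 2 (-0.95 to -0.83), and that in Atg14-deficient cells without cTreg 3 (-0.76).

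The most accessible Nr4a3 region, 2.1 kb upstream of the start (48042613 to 48043716), behaved differently. Control cTregs had 167, 149 and 185 CPM and control eTregs 175, 158 and 161 CPM, with a log2 change of -0.01. Atg14-deficient cTregs had 180, 177, 191 and 147 CPM and Atg14-deficient eTregs 139, 123, 155 and 123 CPM, which overlap, with a log2 change of -0.36 (adjusted p = 0.029 by edgeR), short of the fold-change cutoff. The difference between the 2 fold changes, -0.35 with an unadjusted p of 0.0400 by edgeR, had an adjusted p of 1.00 by edgeR. The locus total fell by 0.37 on the log2 scale in Atg14-deficient cells (379 ± 40.0 to 294 ± 33.0 CPM, SD, n = 4 each, adjusted p = 0.0089 by edgeR) and in controls by 0.17 (adjusted p = 0.362 by edgeR). Without Atg14-deficient cTreg library 3 the former was -0.30 and not called.

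Egr1, the early-response member of its family, had no region called between states. At its promoter (chromosome 18, 34860384 to 34861395), control cTregs had 96.5, 82.3 and 115 CPM and control eTregs 83.3, 81.9 and 96.4 CPM. Atg14-deficient cTregs had 88.2, 95.4, 84.1 and 87.1 CPM and Atg14-deficient eTregs 81.5, 95.8, 99.5 and 84.2 CPM. All 4 groups overlapped, and the log2 fold changes were -0.16 (SE 0.13) and 0.03 (SE 0.12).

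Egr2, which limits T cell activation, was most accessible at its promoter (chromosome 10, 67537012 to 67537993). This region had 123, 133 and 184 CPM in control cTregs, 107, 107 and 129 CPM in control eTregs, 140, 149, 152 and 122 CPM in Atg14-deficient cTregs and 113, 128, 102 and 110 CPM in Atg14-deficient eTregs. The state groups overlapped in each genotype and the log2 fold changes of -0.35 and -0.32 did not pass (adjusted p of 0.145 and 0.085 by edgeR). The called region lay 104.5 kb upstream (67430845 to 67431203), with 8.80, 10.5 and 7.13 CPM in control cTregs against 2.60, 3.67 and 2.52 CPM in control eTregs, and 18.5, 5.45, 13.1 and 9.64 against 2.40, 3.35, 5.29 and 2.05 CPM in Atg14-deficient cells. Every eTreg library was below every cTreg library of its genotype. The log2 fold changes were -1.60 (SE 0.45, adjusted p = 0.0318 by edgeR) and -1.82 (SE 0.39, adjusted p = 0.00347 by edgeR), and the control call was lost on leaving out any control library other than cTreg 3 (-1.79 to -1.45). The Egr2 total fell by 0.29 on the log2 scale in Atg14-deficient cells (adjusted p = 0.0242 by edgeR) and by 0.22 in controls (adjusted p = 0.194 by edgeR). A region 51.9 kb upstream had higher values in eTregs and was called in Atg14-deficient cells with the block alone (log2 fold change 0.83 with an adjusted p of 0.1104, and 0.81 with 0.0305 when blocked, by edgeR). For the Egr2 total, leaving out replicate 1 or 3 of either Atg14-deficient group ended the former call (-0.27 to -0.25).

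At Egr3, a relative of Egr2 with overlapping roles, the region 11.3 kb upstream (chromosome 14, 70065610 to 70066427) was the only one called between states without the block. It had 40.6, 35.7 and 38.3 CPM in control cTregs against 17.6, 15.0 and 25.4 CPM in control eTregs, and 28.6, 25.7, 29.4 and 35.3 against 35.4, 18.4, 29.1 and 20.03 CPM in Atg14-deficient cells. Control groups were apart and Atg14-deficient groups overlapped. The log2 fold change was -0.96 in controls (SE 0.24, adjusted p = 0.0149 by edgeR) and -0.21 in Atg14-deficient cells (SE 0.21, adjusted p = 0.567 by edgeR). The difference of 0.76 between them had the smallest p of all member regions in that comparison (unadjusted p = 0.0218 by edgeR), but its adjusted p was 1.00. The control call was lost without control cTreg 1 (-0.92), eTreg 1 (-0.90) or eTreg 2 (-0.81). With the block, a region 20.1 kb upstream was called higher in Atg14-deficient eTregs (0.52 with an adjusted p of 0.0945, and 0.53 with 0.0162 when blocked, by edgeR). The Egr3 promoter had 32.2 ± 5.53 CPM in control cTregs against 29.4 ± 4.03 CPM in control eTregs (SD, n = 3 each), a log2 change of -0.14, and the most accessible region, 2.5 kb upstream, one of 0.05.

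**Figure D2:**
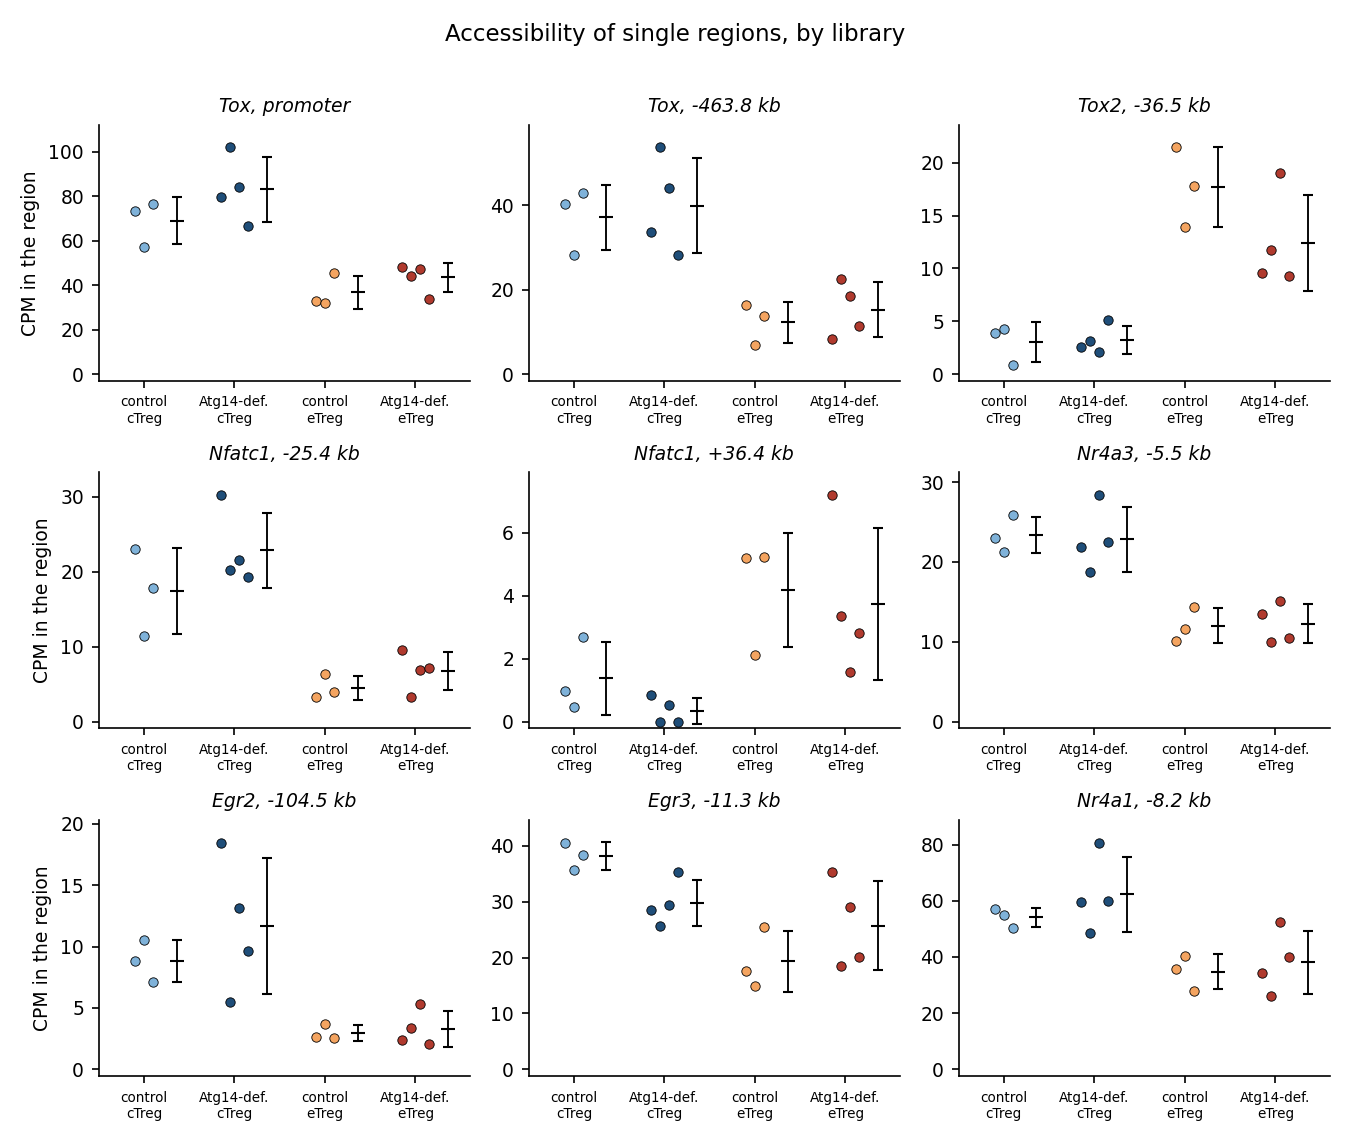
Accessibility in CPM (vertical axes) of 9 regions in each of the 14 libraries (points), with the mean and SD of each group beside them. The groups of eTregs and cTregs are apart in both genotypes at the Tox promoter, the upstream regions of Tox, Tox2, Nr4a3 and Egr2 and the upstream Nfatc1 region, while at the Egr3 region the control groups are apart and the Atg14-deficient groups overlap.

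Nfatc1 is the NFAT gene whose own short isoform is induced by NFAT from an alternative promoter. The 34 tested regions moved both ways between states, with a median log2 fold change of -0.20 in controls and -0.03 in Atg14-deficient cells. The drop with the smallest p was 25.4 kb upstream of the start, inside the neighbouring gene Atp9b (chromosome 18, 80738221 to 80738661), where control cTregs had 23.0, 11.5 and 17.8 CPM and control eTregs 3.25, 6.30 and 3.97 CPM. Atg14-deficient cTregs had 30.2, 20.2, 21.6 and 19.3 CPM and Atg14-deficient eTregs 9.59, 3.35, 6.88 and 7.19 CPM. The groups were apart in both genotypes, with log2 fold changes of -1.94 (SE 0.35, adjusted p = 0.00164 by edgeR) and -1.72 (SE 0.30, adjusted p = 0.000653 by edgeR). A weaker region 71.4 kb upstream, also inside Atp9b, was called lower in Atg14-deficient cells (6.18 ± 0.690 to 1.33 ± 0.830 CPM, SD, n = 4 each, log2 fold change -2.18, adjusted p = 0.0115 by edgeR) and had -0.90 with an adjusted p of 0.463 by edgeR in controls, and the difference between these fold changes, -1.28 (SE 0.85), did not pass its own test.

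Of the 16 intron regions of Nfatc1, 8 were below 0 in controls and 6 in Atg14-deficient cells. In controls 1 was called lower and 0 higher by edgeR, and in Atg14-deficient cells 2 were called higher. The intron region 23.6 kb inside (80684314 to 80684820) had 1.47, 4.79 and 1.78 CPM in control cTregs and 8.46, 17.3 and 5.23 CPM in control eTregs. In Atg14-deficient cells it had 2.52, 0.779, 2.103 and 8.35 CPM in cTregs and 24.6, 9.20, 23.6 and 11.8 CPM in eTregs. The groups were apart in both genotypes, but only the Atg14-deficient comparison passed (log2 fold change 2.30, adjusted p = 0.00944 by edgeR, against 1.86 and an adjusted p of 0.0887 by edgeR in controls), and the difference between these fold changes, 0.44 (SE 0.84), did not pass its own test. A region 36.4 kb inside (80671681 to 80671941) rose in Atg14-deficient eTregs from counts of 2, 0, 2 and 0 in the cTreg libraries to 24, 8, 6 and 11, and had 4, 2 and 6 against 16, 8 and 29 counts in controls. The fitted log2 fold changes of 3.33 (adjusted p = 0.0113 by edgeR) and 1.73 (adjusted p = 0.206 by edgeR) rest on these low counts, and without Atg14-deficient eTreg library 1 the former was 2.79 and not called.

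The region at its distal start (80712898 to 80713260) had 10.5 ± 3.33 CPM in control cTregs and 15.2 ± 2.01 CPM in control eTregs (SD, n = 3 each), a log2 change of 0.51 that did not pass (adjusted p = 0.364 by edgeR). The region 0.8 kb inside the internal start (80707057 to 80707702) was lower in Atg14-deficient eTregs than in Atg14-deficient cTregs (17.0 ± 4.67 against 29.3 ± 4.03 CPM, SD, n = 4 each, log2 fold change -0.79, adjusted p = 0.0368 by edgeR) and had -0.28 with an adjusted p of 0.627 by edgeR in controls. A region 21.9 kb inside was called higher in Atg14-deficient cells with the block alone (0.55 with an adjusted p of 0.233, and 0.58 with 0.0226 when blocked, by edgeR). Toward the end of the gene, the region 99.6 kb inside was lower in control eTregs (-0.83, adjusted p = 0.0461 by edgeR), a call that ended on leaving out any control library other than eTreg 2 (-0.92 to -0.67). In Atg14-deficient cells it had -0.59 and was called only with the replicate number as a block (adjusted p of 0.0741 and, blocked, 0.0175 by edgeR). The locus total did not pass between states in either genotype (log2 fold changes -0.12 and -0.03, SEs 0.12 and 0.10).

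Tox encodes an HMG-box factor needed for CD4 T cell development and induced by NFAT in chronically stimulated T cells. Its locus total was 728, 599 and 744 CPM in control cTregs, 350, 331 and 466 CPM in control eTregs, 839, 890, 872 and 672 CPM in Atg14-deficient cTregs and 463, 579, 502 and 411 CPM in Atg14-deficient eTregs. Every eTreg library was below every cTreg library of either genotype. The log2 fold change was -0.85 in controls (SE 0.14, adjusted p = 0.000897 by edgeR) and -0.74 in Atg14-deficient cells (SE 0.12, adjusted p = 0.000397 by edgeR). In order of level the groups ran from Atg14-deficient cTregs over control cTregs and Atg14-deficient eTregs to control eTregs, and the neighbours within a cell state overlapped.

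The drop at Tox was spread over the gene and the region upstream of it. In controls 24 of 32 intron regions and 24 of 25 upstream regions were below 0, with median log2 fold changes of -0.59 and -1.24. The adjusted threshold was passed by 4 of these intron regions, 7 of the upstream regions and the promoter. In Atg14-deficient cells 8 intron regions, 6 upstream regions and the promoter were called lower and 1 intron region higher. With the block, 3 more Tox regions were called lower, at 65.9 kb inside the gene (-0.53, adjusted p = 0.0372 by edgeR) and at 183.6 and 449.8 kb upstream (-1.57 and -1.21, adjusted p of 0.0116 and 0.0309 by edgeR), whose adjusted p without it were 0.0813, 0.104 and 0.0768.

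At the Tox promoter (chromosome 4, 6990113 to 6991581), control cTregs had 73.6, 57.0 and 76.7 CPM and control eTregs 32.9, 32.0 and 45.4 CPM. Atg14-deficient cTregs had 79.8, 102, 84.1 and 66.8 CPM and Atg14-deficient eTregs 48.2, 44.3, 47.4 and 33.9 CPM. The groups did not overlap, and this region had the smallest p of all member regions in the Atg14-deficient comparison (log2 fold change -0.94, SE 0.15, adjusted p = 0.000367 by edgeR), with -0.89 (SE 0.18, adjusted p = 0.00337 by edgeR) in controls. The region 463.8 kb upstream (7455046 to 7455628) had 40.3, 28.2 and 42.8 CPM in control cTregs and 16.3, 6.82 and 13.7 CPM in control eTregs, and 33.6, 53.7, 44.2 and 28.3 against 8.39, 22.6, 18.5 and 11.3 CPM in Atg14-deficient cells. Here too no eTreg library reached a cTreg library, with log2 fold changes of -1.59 (adjusted p = 0.00477 by edgeR) and -1.41 (adjusted p = 0.00246 by edgeR). Regions this far from the start were placed at Tox by position alone.

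Of the 2 Tox regions whose sequence is printed above, the intron region 88.4 kb inside the gene (6902126 to 6902735) had 34.2, 25.4 and 27.6 CPM in control cTregs and 12.4, 6.82 and 13.3 CPM in control eTregs, a log2 change of -1.41 (adjusted p = 0.00421 by edgeR). In Atg14-deficient cells it had 51.2, 33.5, 54.9 and 31.8 against 18.3, 26.8, 17.5 and 11.3 CPM, a log2 change of -1.24 (adjusted p = 0.00179 by edgeR). The upstream region at 372.9 kb fell from 14.7 ± 3.61 to 4.38 ± 0.425 CPM (SD, n = 3 each) in controls, a log2 change of -1.72 (adjusted p = 0.00428 by edgeR). An intron region 89.4 kb inside (log2 fold change -1.37, adjusted p = 0.00273 by edgeR) and an upstream region at 243.4 kb (-2.33, adjusted p = 0.00119 by edgeR) were called in Atg14-deficient cells and had -0.70 and -1.18 in controls, short of the adjusted threshold. The exception in direction was the intron region 120.2 kb inside (6870494 to 6870871), with 11.1 ± 0.541 and 10.4 ± 3.00 CPM (SD, n = 3 each) in control cTregs and eTregs and 9.89 ± 2.69 and 17.5 ± 2.901 CPM (SD, n = 4 each) in Atg14-deficient ones. It rose in Atg14-deficient eTregs (log2 fold change 0.83, adjusted p = 0.0413 by edgeR).

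Tox2, the relative of Tox that is prominent in follicular helper T cells, had a higher locus total in eTregs. It was 144, 171 and 115 CPM in control cTregs and 212, 223 and 195 CPM in control eTregs, and 152, 146, 140 and 169 against 221, 158, 226 and 175 CPM in Atg14-deficient cells. The control groups were apart and the Atg14-deficient groups overlapped, with log2 fold changes of 0.54 (adjusted p = 0.0157 by edgeR) and 0.37 (adjusted p = 0.0366 by edgeR). The control call ended without cTreg 1, cTreg 3, eTreg 1 or eTreg 2 (0.42 to 0.54), and the Atg14-deficient call without cTreg 1, 2 or 3 or eTreg 1 or 3 (0.29 to 0.37). Of all member gene totals, 2 of 9 were called in controls (7.56% of 15346 genes were) and 5 of 9 in Atg14-deficient cells (17.5% of genes), the latter being Tox, Tox2, Nr4a2, Nr4a3 and Egr2.

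Both Tox2 regions called without the block lay close together upstream. With it, a region 60.5 kb inside the gene was called lower in Atg14-deficient eTregs (-1.01 with an adjusted p of 0.0572, and -1.002 with 0.0226 when blocked, by edgeR). The one at 36.5 kb (chromosome 2, 163166486 to 163166824), with the AP-1 site shown, had 3.91, 4.31 and 0.892 CPM in control cTregs and 21.5, 13.9 and 17.8 CPM in control eTregs. Atg14-deficient cells had 2.52, 3.11, 2.103 and 5.14 CPM in cTregs and 9.59, 11.7, 19.1 and 9.25 CPM in eTregs. The groups were well apart, with log2 fold changes of 2.42 (SE 0.42, adjusted p = 0.000908 by edgeR) and 1.94 (SE 0.38, adjusted p = 0.00166 by edgeR), and the former was the smallest p of all member regions in controls. The neighbour at 36.9 kb rose from 2.23 ± 1.49 to 10.7 ± 1.91 CPM (SD, n = 3 each) in controls (log2 fold change 2.15, adjusted p = 0.00731 by edgeR) and by 2.27 on the log2 scale in Atg14-deficient cells (adjusted p = 0.00122 by edgeR). Its control call was lost without control cTreg 1 (2.02). The Tox2 promoter (163202845 to 163203923) had 45.3 ± 10.6 and 66.9 ± 2.95 CPM (SD, n = 3 each) in control cTregs and eTregs, with non-overlapping groups, and did not pass (log2 fold change 0.55, adjusted p = 0.120 by edgeR).

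**Figure D3:**
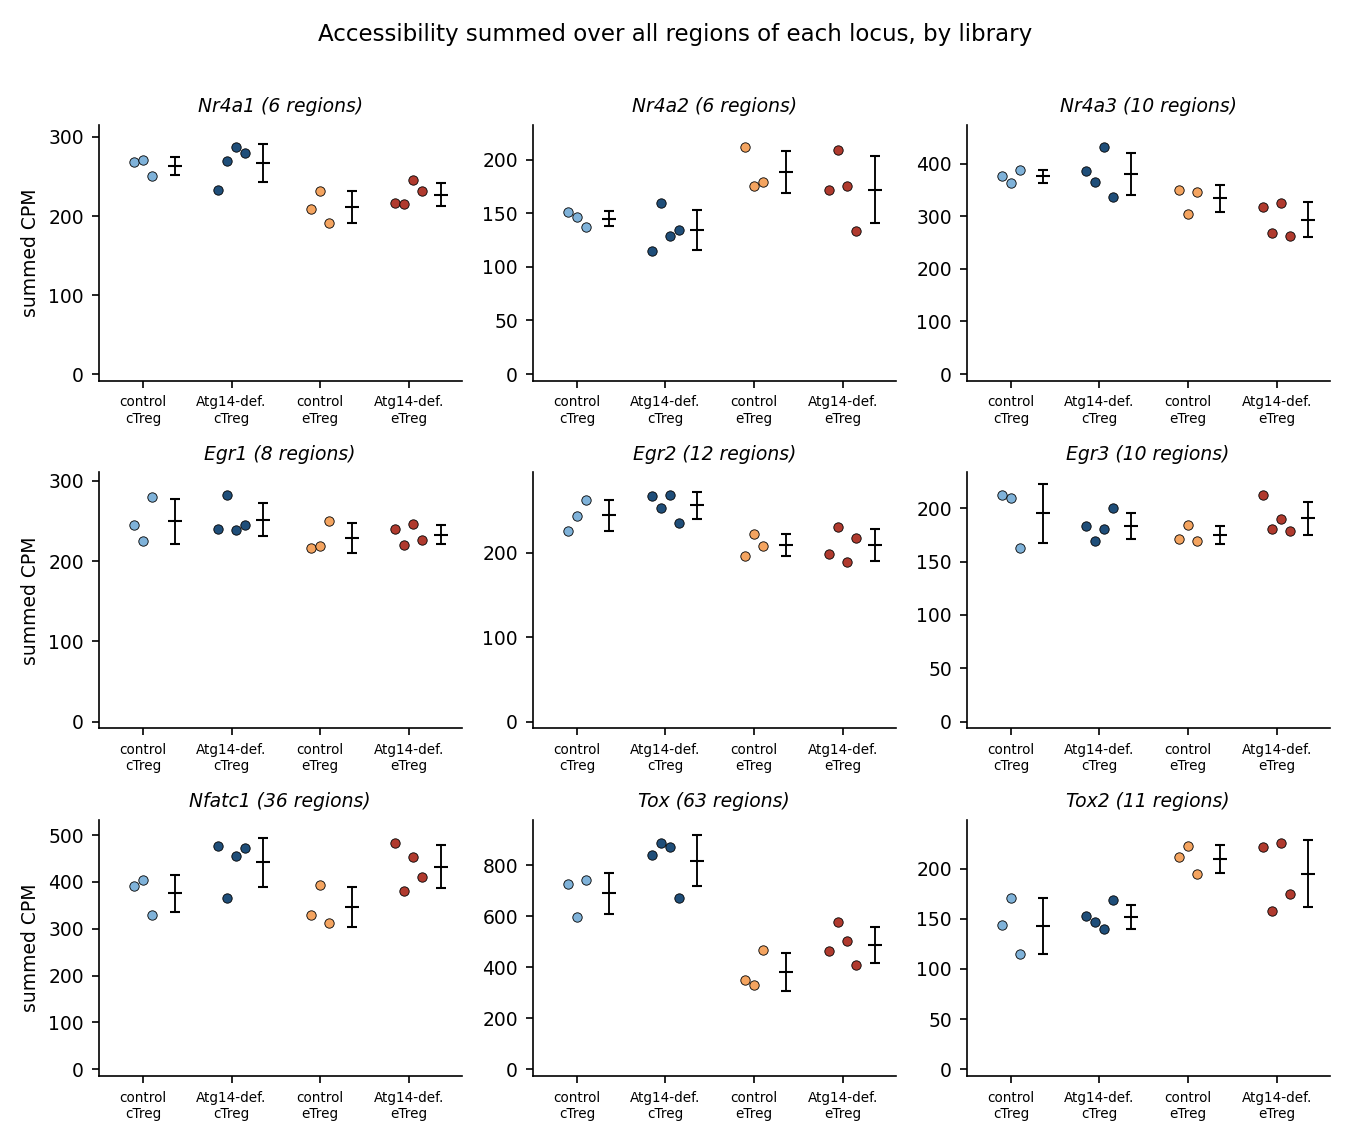
CPM summed over all regions of each of the 9 loci (vertical axes) in each of the 14 libraries (points), with the mean and SD of each group beside them. The eTreg libraries lie below the cTreg libraries at Tox, while at Tox2 and Nr4a2 the control eTreg libraries lie above the control cTreg libraries.

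Atg14-deficient and control cells were then compared within each state. No member region and no member gene total passed an adjusted p below 0.05 with edgeR in eTregs or cTregs, whereas 14 regions in eTregs (0.0228%) and 10 in cTregs (0.0163%) did over the whole table, as did 0.163% and 0.0652% of all gene totals. At an unadjusted p below 0.05, edgeR called 2 of the 9 member totals in eTregs (12.7% of all totals) and 1 in cTregs (4.29%), and DESeq2 called 0 at the adjusted threshold. At the cutoffs the study names, no adjustment of p and the same fold, edgeR called 12 of 153 member regions in eTregs (7.84%, against 6.36% of all regions) and 7 in cTregs (4.58% against 3.34%), shares near the background. DESeq2 called 13 and 4 member regions at these cutoffs. All of the edgeR calls were higher in Atg14-deficient cells, where 4.59% of all regions were higher and 1.77% lower in eTregs and 1.99% and 1.35% in cTregs. With TMM scaling the split was 11 higher and 1 lower in eTregs and 5 and 0 in cTregs, and with loess offsets 9 and 1 and 6 and 2. Over all regions 72.2% of the calls in eTregs were higher, against 60.1% with TMM and 57.0% with loess, and in cTregs 59.6%, 53.6% and 49.0%. Over all 153 member regions, Atg14-deficient eTregs lay above control eTregs without overlap in 14 (9.15%, against 4.97% of all regions) and below in 3 (1.96% against 3.51%). In cTregs the counts were 9 (5.88% against 3.05%) and 2 (1.31% against 2.45%).

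Tox held 10 of the 12 regions in eTregs and 4 of the 7 in cTregs, 2 of them shared. These are 16.9% and 6.78% of its 59 tested regions, against 6.36% and 3.34% of all regions. The other loci together had 2 and 3 of 94 regions called (2.13% and 3.19%), so that the pooled shares joined unlike parts. The promoters of cTreg markers, 5 of 6 with a region, moved with genotype in eTregs as well, summing to 23.4 to 29.9 CPM in control and 42.1 to 54.4 CPM in Atg14-deficient eTregs, against 71.1 to 79.2 and 70.1 to 99.9 CPM in the cTregs. Ccr7 had 11.1 and 19.5 CPM and Satb1 5.48 and 11.7 CPM in control and Atg14-deficient eTregs, and the part of such cells in the Tox values was not tested. In eTregs the smallest p was at the Tox intron region 65.9 kb inside the gene (6924673 to 6925223), with 13.0, 13.4 and 14.2 CPM in control and 21.6, 16.7, 25.7 and 24.7 CPM in Atg14-deficient libraries. The groups did not overlap, and the log2 fold change was 0.72 (SE 0.22, unadjusted p = 0.00311 and adjusted p = 0.391 by edgeR). The intron region 40.3 kb inside (6950319 to 6950664) had 2.60, 3.15 and 2.34 CPM in control and 6.59, 6.69, 6.35 and 4.11 CPM in Atg14-deficient eTregs. These groups were apart as well, with a log2 change of 1.13 (SE 0.36, adjusted p = 0.421 by edgeR). The region 55.7 kb inside had 4.20 ± 2.31 CPM (SD, n = 3) against 8.55 ± 1.39 CPM (SD, n = 4), a log2 change of 0.96 (adjusted p = 0.516 by edgeR) that was 0.74 without control eTreg 1 and 0.78 without control eTreg 2 and then not called.

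In cTregs the smallest p was at the Tox intron region 89.4 kb inside, with 18.8, 7.42 and 14.3 CPM in control and 29.4, 28.4, 26.8 and 17.99 CPM in Atg14-deficient libraries (log2 fold change 0.93, unadjusted p = 0.00462 by edgeR). The groups overlapped, and without control cTreg 2 it was 0.61 and not called. Its neighbour 87.0 kb inside had 19.9 ± 4.67 CPM (SD, n = 3) against 29.2 ± 1.80 CPM (SD, n = 4), a log2 change of 0.58 that was 0.43 and not called without control cTreg 2. An upstream region at 456.8 kb had 3.18, 3.35 and 2.68 against 4.20, 17.9, 9.20 and 3.21 CPM (log2 fold change 1.46), and without Atg14-deficient library 2 the log2 fold change was 0.86 and the call was lost. The intron region 88.4 kb inside was called in both states, with log2 fold changes of 0.56 in cTregs and 0.73 in eTregs. The former was lost without control cTreg 2 or 3 or Atg14-deficient cTreg 1 or 3 (0.41 to 0.53), and the latter without control or Atg14-deficient eTreg 2 (0.49 and 0.52).

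Outside Tox, 2 regions were called in eTregs and 3 in cTregs. In eTregs the Egr3 region 7.9 kb upstream had 1.95, 2.62 and 0.3605 CPM in control against 2.40, 2.51, 5.03 and 4.11 CPM in Atg14-deficient libraries (log2 fold change 1.19, adjusted p = 0.607 by edgeR), and the Nfatc1 intron region 98.4 kb inside had 8.46, 11.5 and 11.7 CPM against 14.7, 15.1, 19.1 and 15.9 CPM, a log2 change of 0.60. The Egr3 call was lost without control eTreg 3 (0.62) or Atg14-deficient eTreg 3 or 4 (0.96 and 1.11), and the Nfatc1 call without control eTreg 1 (0.48) or Atg14-deficient eTreg 3 (0.51). In cTregs the calls were the Egr1 region 6.6 kb upstream (0.51), the Nfatc1 region 71.4 kb upstream (1.19) and the Nfatc1 region 0.8 kb inside its internal start (0.54), each on the log2 scale and with an adjusted p of 1.00 by edgeR. Each was lost without control cTreg 3 (0.41, 0.86 and 0.27), without Atg14-deficient cTreg 4 (0.48, 1.13 and 0.47) and without at least 1 further library. The loci of Nr4a1, Nr4a2, Nr4a3, Egr2 and Tox2 had none in either state.

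Summed over loci, Nfatc1 and Tox had the largest differences in eTregs. The Nfatc1 total was 330, 394 and 313 CPM in control and 484, 382, 454 and 410 CPM in Atg14-deficient eTregs, which overlap, a log2 change of 0.32 (SE 0.11, unadjusted p = 0.00688 and adjusted p = 0.220 by edgeR). The Tox total gave 0.35 (SE 0.13, adjusted p = 0.290 by edgeR). In cTregs the same totals gave 0.23 (SE 0.11) for Nfatc1 and 0.25 (SE 0.13) for Tox, each with an adjusted p of 0.997 by edgeR. The other 7 totals had log2 fold changes of -0.18 to 0.12 in eTregs and -0.11 to 0.08 in cTregs, with SEs of 0.09 to 0.13.

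**Figure D4:**
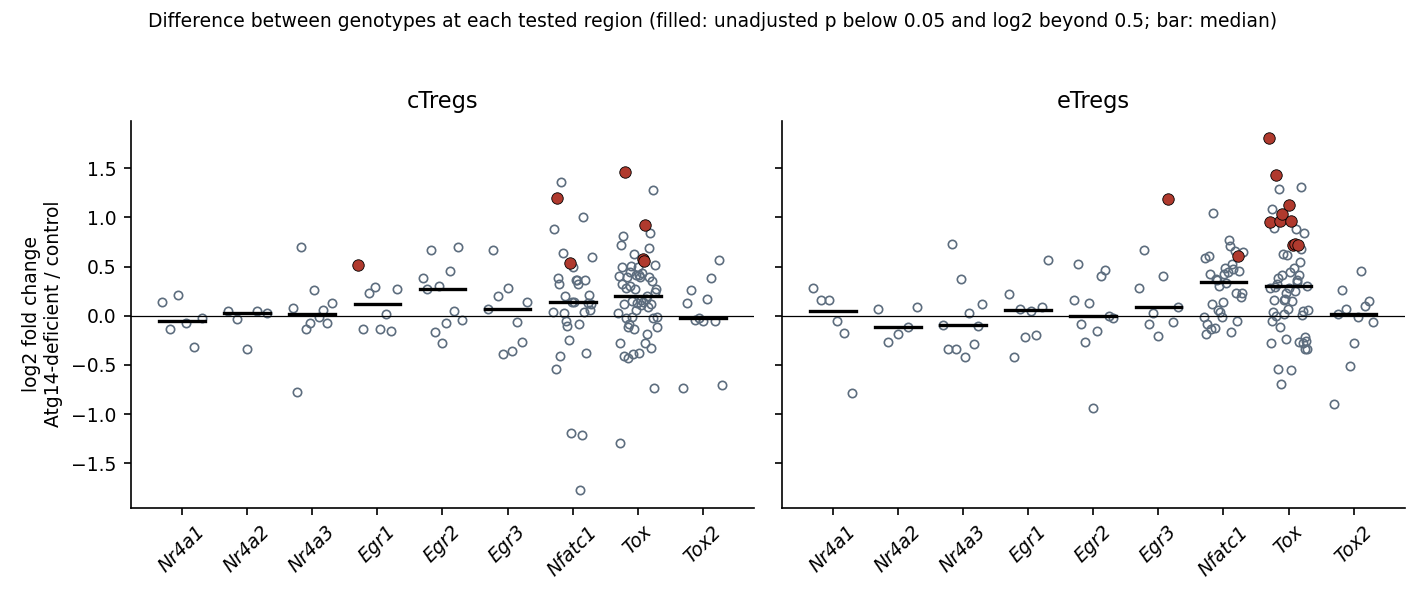
Log2 fold change of Atg14-deficient over control libraries (vertical axis) at each tested region of the 9 loci (points, ordered by position within each locus), in cTregs (left) and eTregs (right), with bars at the median of each locus. Filled points, 7 in cTregs and 12 in eTregs, passed the unadjusted cutoffs and all lie above 0, and most of them belong to Tox.

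The genotype effect was compared between states by the interaction of the same model. No region of the whole table passed an adjusted p below 0.05 with edgeR, and at the unadjusted cutoffs 2 of 153 member regions were called (1.31%, against 3.05% of all regions), the Egr3 region 11.3 kb upstream described above and the Tox intron region 120.2 kb inside, with an interaction of 0.90 (SE 0.40, unadjusted p = 0.0326 by edgeR). DESeq2 also called 2 member regions at the unadjusted cutoffs. With the replicate number as a block, 6 member regions were called (3.92%, against 4.52% of all regions), that is both of these and Tox regions 49.8 kb and 14.9 kb inside and 243.4 kb and 366.9 kb upstream (interactions of 0.82, -0.69, -1.29 and 1.81, unadjusted p of 0.0465, 0.00475, 0.0411 and 0.0496 by edgeR), and none of the 6 passed an adjusted p below 0.05. The Egr3 call was lost without control eTreg 2 (0.60) or Atg14-deficient eTreg 1 (0.57), and the Tox call without control cTreg 1, Atg14-deficient cTreg 3, control eTreg 1 or 2 or Atg14-deficient eTreg 1 (0.75 to 0.89). The genotype and state comparisons share libraries, so that a high or low group enters several of them.

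Relatives and regulators of these factors, a list of 15 genes that included other NFAT genes, calcineurin subunits and their inhibitors, Egr4, the Egr corepressors Nab1 and Nab2, and Tox3 and Tox4, had 95 tested regions, none of them at Tox4. In controls 3 were called, all higher in eTregs, and in Atg14-deficient cells 5 were higher and 5 lower. These are 3.16% and 10.5% of the list, against 5.30% and 9.81% of all regions. A region 22.3 kb from the start of Rcan1, an NFAT target that inhibits calcineurin, had 14.7 CPM in control cTregs and 54.8 CPM in control eTregs (log2 fold change 1.86, adjusted p = 0.00055 by edgeR), and 14.9 and 47.1 CPM in Atg14-deficient cells (1.66). The Egr4 promoter had 9.09 and 23.4 CPM in control cTregs and eTregs (1.36, adjusted p = 0.0109 by edgeR), and a region 271.3 kb from the start of Ppp3ca, a catalytic calcineurin subunit, 37.4 and 72.3 CPM (0.92, adjusted p = 0.0336 by edgeR). Over gene totals, Rcan1 and Egr4 were called higher in both genotypes and no other gene of the list was called, that is 2 of 14 totals (14.3%) in each, against 7.56% of all totals in controls and 17.5% in Atg14-deficient cells.

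Other genes that antigen receptor signals induce, a list of 14 with 208 tested regions, had 15 regions lower and 4 higher in control eTregs, and 15 lower and 6 higher in Atg14-deficient eTregs. These are 9.13% and 10.1% of the list, against 5.30% and 9.81% of all regions. Lower calls were 7.21% of the list in each genotype, against 3.29% of all regions in controls and 5.40% in Atg14-deficient cells, and higher calls 1.92% and 2.88%, against 2.01% and 4.41%. The smallest p belonged to a region 27.7 kb upstream of Dusp5, a MAP kinase phosphatase (4.55 against 0.295 CPM in controls, adjusted p = 0.00227 by edgeR). Regions 121.2 kb from the start of Cd83, an activation marker, and 75.9 kb from that of Irf4, a factor required for eTregs, followed (15.4 against 4.10 CPM and 4.94 against 0.632 CPM in controls, adjusted p of 0.00431 and 0.0055 by edgeR). In Atg14-deficient cells the Dusp5 region passed (7.15 against 1.48 CPM, log2 fold change -2.23, adjusted p = 0.00523 by edgeR) and the Cd83 and Irf4 regions did not (13.7 against 7.50 CPM and 5.07 against 2.97 CPM, adjusted p of 0.0845 and 0.315 by edgeR). Over gene totals Cd69, an early activation marker, and Irf4 were called lower in both genotypes (-0.52 and -0.53 in controls), again 2 of 14 totals (14.3%, against the same 7.56% and 17.5%). Between genotypes no region or total of either list passed an adjusted p below 0.05 with edgeR, and at the unadjusted cutoffs in eTregs this list had 15 regions higher and 3 lower and the list of relatives 6 higher and 2 lower, that is 7.21% and 1.44% of the former and 6.32% and 2.11% of the latter, against 4.59% and 1.77% of all regions. The Irf4 region was among the former (0.632 against 2.97 CPM in eTregs, unadjusted p = 0.00153 and adjusted p = 0.344 by edgeR). Median log2 fold changes between control states were -0.13 in each list, against -0.01 over all regions.

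As a description over the 14 libraries, which share their scaling and differ in depth, the gene totals most like Tox among 7404 genes with at least 3 tested regions were Il7r (Pearson's r = 0.974 of log2 CPM), Oxsm (0.973) and Tgfbr3 (0.972). Those most like Tox2 were Sdcbp2 (0.959), Dhrs9 (0.927) and Lilr4b (0.922). The closest single genes were Aox2 for Nr4a1 (0.927), 4930430F08Rik for Nr4a2 (0.939), Fez2 for Nr4a3 (0.949), Kansl1l for Egr1 (0.878), Ggact for Egr2 (0.908) and Dhrs2 for Egr3 (0.873).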

How the data were processed

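The authors deposited a table of raw ATAC-seq counts for 67254 regions in 14 libraries, together with the position of each region. Per the labels, the submitters' notes name cutadapt 1.9, Picard 1.65, SAMtools, MACS2 2.1.0.20150603, bedtools and the mm10 (GRCm38) build, and the study kept peaks seen in 50% or more of a group's libraries and merged them. The study's methods name other trimming software and an older build, so the build was checked: all 67207 regions on the assembled chromosomes lay within GRCm38, and 13410 of 26873 RefSeq starts had a region within 200 bp, against 1006 after a shift of 20000 bp. Of the counts, 82.0% were even, so the independent fragments behind a low count may be fewer than the count itself, which was not tested.

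Counts were scaled to the library total, as CPM, and fitted with edgeR 4.0.16 (quasi-likelihood, robust) in R 4.3.3 over all 4 groups after edgeR's filter on low counts, which 61366 regions passed. Regions were also summed per gene (15346 genes). Log2 CPM values for the correlations between libraries and for the loess offsets use a prior count of 2. The edgeR log2 fold changes use the default prior of its fit instead. Between states a call needed a Benjamini-Hochberg adjusted p below 0.05 with a log2 fold change past 0.5, between genotypes and for the interaction an unadjusted p below 0.05 and the same fold, as the study used, and for gene totals an adjusted p below 0.05. The coefficient of variation between replicates was 25.6% for regions and 14.4% for gene totals, and a tested region had a median mean count of 23 per library, which sets the precision.

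Named for each locus were the tested region nearest the start, the most accessible region and, in each comparison, up to 3 called regions (5 for Tox) by smallest p, and the 3 smallest p over all loci. Of each gene list up to 3 genes were named, by the smallest p between control states. Further regions and the list genes called by their totals were added after their values were seen. The sequences printed depart from the rule of a promoter and a smallest-p region for each locus, in that windows overlapping exons were left out. The members and gene lists were chosen with earlier results of these data known. Within the Atg14-deficient groups, libraries with the same replicate number deviated together over regions (correlations of 0.119, 0.243, 0.140 and 0.225), so these numbers were taken as pairs and the blocked value is given where it changes a call. Alternatives covered scaling (TMM, DESeq2 1.42.0 size factors, loess and GC loess), low-count filters, DESeq2's test, the groups fitted, the block, the fold-change cutoff, the assignment of regions and each library left out. The genes whose totals were most like that of Nfatc1 are not reported here.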

Additional observations from a re-analysis of the deposited data

Results flagged for a closer look

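Of 80 groups of 4 libraries at the named regions, 3 had a library far from the others, where chance gives about 1 in 20. At the Egr1 region 6.6 kb upstream, Atg14-deficient eTreg 1 had 23.7 CPM and the other 3 libraries 17.2 to 18.2 CPM. At the Nfatc1 region 99.6 kb inside the gene, Atg14-deficient eTreg 3 had 27.0 CPM and the others 17.6 to 18.9 CPM. At the Tox region 40.3 kb inside, Atg14-deficient eTreg 4 had 4.11 CPM and the others 6.35 to 6.69 CPM.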

How the results depend on the processing

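No called region or gene total named by the rule changed sign under the alternatives run, and the cause of the shifts below was not tested. The median over all regions between control states, -0.01, was 0.02 with DESeq2 size factors and 0.01 with loess offsets, and that between Atg14-deficient states, 0.02, was -0.0041 with TMM. For the 19 regions called between control states, the count was 9 with at least 10 counts in every library, 32 with the replicate block, with or without GC loess offsets, and 6 with regions inside gene bodies only. For the 27 between Atg14-deficient states it was 13 with that filter and 15 inside gene bodies. For the 12 in eTregs between genotypes it was 6 with that filter, 5 at a log2 fold-change cutoff of 1 and 6 inside gene bodies, and for the 7 in cTregs 4 with DESeq2's test, 2 at that cutoff and 4 inside gene bodies. The 2 interaction calls became 6 with the block, 7 with block and GC loess offsets, 0 at that cutoff and 1 inside gene bodies. Leaving out Tox, chosen after seeing the data, gave 7, 11, 2, 3 and 1 in the same order. These counts, and those with a library left out below, are given without the share of all regions called under the same setting. By themselves they do not tell a change at the members from a change over the whole table. Between Atg14-deficient states the block raised the share of all regions called from 9.81% to 15.5%. Gene totals called between control states went from 2 to 4 with the block. Control replicate numbers were not taken as pairs (correlations 0.0543, 0.209 and 0.190), although each control library correlated best with its own number. Of these, 0.209 and 0.190 exceed 0.119 and 0.140, the lowest correlations taken as pairs in Atg14-deficient cells. The control results above are thus given without the block, under which more control regions and totals were called. In Atg14-deficient cells the block gave 35 calls, which held all 27, and it ended none of the named calls between states.

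With 1 library left out, the counts ranged from 9 to 19 between control states (9 without cTreg 1, 10 without eTreg 2, 11 without eTreg 1, 12 without cTreg 3), 17 to 28 between Atg14-deficient states (17 without cTreg 3), 6 to 16 between genotypes in eTregs (6 without control eTreg 1), 6 to 8 in cTregs and 1 to 5 for the interaction (1 without control eTreg 2 or Atg14-deficient eTreg 1, 4 without control eTreg 3, 5 without control cTreg 1 or Atg14-deficient eTreg 2). Gene totals ranged from 1 to 2 in controls (1 without cTreg 1, cTreg 3 or eTreg 1) and from 1 to 5 in Atg14-deficient cells (1 without cTreg 3, 2 without eTreg 1 or eTreg 3, 3 without cTreg 1), and were 0 in the other comparisons. For single regions and totals, 432 results kept their side of the threshold under the other alternatives and 50 lost it, and 277 and 85 did so with a library left out. The calls of the Tox total and promoter were lost with no library left out.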
